A study of Mus musculus with 12 samples.

Results

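Pi15, Abat, C1qtnf7, Sim2, Abcb1a, Add2, Erg and Asb5 are the 8 genes described here, of 25230 genes listed in the deposited counts. They were selected on measured values, namely large differences between knockout (KO) and wild-type (WT) cultures in level or in the response to TGF-β. Differences between the genotypes in these 8 genes are therefore what chose them and are given as values with no test. The libraries came from primary mouse mesangial cells (MMC), the contractile cells between the capillaries of the kidney glomerulus. The WT-SD group was WT MMC in serum-depleted medium (SD), and the WT-TGF group was WT MMC given 10 ng/ml TGF-β over 24 h. The KO-SD and KO-TGF groups were MMC of the lncMGC-KO5 line in the same pair of conditions, and the labels give 24 h for every group. Mice of this line carry a Cas9 deletion around the transcription start site of the long non-coding RNA lncMGC. Each group had 3 libraries. The line was made in C57BL/6J embryos and crossed to C57BL/6 mice, and MMC were grown from pooled glomeruli and used at passages 5 to 7. KO5 is 1 of several mutant lines, the number of mice behind the libraries of a genotype is not given in the sources used here, and genotype and culture cannot be told apart. The p-values measure only the spread between these libraries.

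Total counts on genes were between 19898050 and 22827706 per library. Levels are given as CPM, counts scaled to a common library size with TMM factors, mean ± SD over the 3 libraries of a group. The factors differ between libraries, so raw counts cannot be read directly across them. For Abcb1a, 116 counts in WT-TGF replicate 1 were 5.48 CPM, and 118 counts in KO-TGF replicate 1 were 6.31 CPM. lncMGC is not named in the count table. Mirg, which the study describes as part of the end of lncMGC, had 47, 50 and 59 counts in WT-SD and 72, 89 and 74 in KO-SD, and 73, 80 and 76 in WT-TGF against 68, 87 and 86 in KO-TGF. Once scaled, every KO-SD library (3.31 to 4.30 CPM) was above every WT-SD library (2.14 to 2.69 CPM), and the TGF libraries overlapped. The study reported lower Mirg in KO5 than in WT MMC by RT-qPCR, which these counts did not show. The reason for this was not tested. KO means the libraries labelled KO throughout.

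The 8 genes code for proteins of different kinds. Pi15 is a secreted peptidase inhibitor of the CAP family, and C1qtnf7 is a secreted member of the C1q and TNF related family, whose members resemble adiponectin. Abat is the mitochondrial transaminase that breaks down the inhibitory transmitter GABA. Sim2 is a bHLH-PAS transcription factor known from the development of the midline of the brain, and Erg is an ETS transcription factor best known for keeping endothelial cells in their state. Abcb1a is one of the mouse P-glycoproteins, which pump drugs and other lipophilic compounds out of cells. Add2 is the β subunit of adducin, which joins spectrin to the ends of actin filaments under the membrane, and Asb5 has ankyrin repeats and the SOCS box that recruits a cullin-5 ubiquitin ligase. TGF-β acts through receptors that phosphorylate SMAD2 and SMAD3, and in mesangial cells it is known for raising matrix genes and contractile proteins.

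The genes lie on 5 chromosomes of mm10 (GRCm38), by RefSeq annotation. Pi15 is at chr1:17601901-17630939, C1qtnf7 at chr5:43515425-43619126, Abcb1a at chr5:8567091-8748575 and Add2 at chr6:86028681-86124409, all on the plus strand. Abat at chr16:8513429-8621568 and Sim2 at chr16:94085104-94127032 are on the plus strand, Erg at chr16:95359169-95586600 is on the minus strand, and Asb5 is at chr8:54550331-54587842 on the plus strand. None is on chromosome 12, which holds lncMGC.

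RefSeq promoters of GRCm38.p6 matched 5 of the 8 genes. Pi15, Abat and Sim2 had no entry. The 250 bases before the first annotated start are shown for Add2 and Asb5, the members whose patterns over the 12 libraries were closest to each other, and for Erg and Abcb1a, whose TGF-β responses differed between the genotypes in opposite directions. They are written 5′ to 3′ on the strand of the gene. Capitals mark the SMAD core CAGAC or its complement GTCTG, and TATAAA or TTTATA. The windows are chr6:86028431-86028680 (plus strand), chr8:54550081-54550330 (plus), chr16:95586594-95586843 (minus) and chr5:8566841-8567090 (plus).
Add2: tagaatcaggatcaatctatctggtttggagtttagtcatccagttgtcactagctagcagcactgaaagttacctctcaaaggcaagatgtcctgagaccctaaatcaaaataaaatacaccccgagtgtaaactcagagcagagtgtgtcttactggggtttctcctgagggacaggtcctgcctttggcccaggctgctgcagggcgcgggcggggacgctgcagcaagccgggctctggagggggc
Asb5: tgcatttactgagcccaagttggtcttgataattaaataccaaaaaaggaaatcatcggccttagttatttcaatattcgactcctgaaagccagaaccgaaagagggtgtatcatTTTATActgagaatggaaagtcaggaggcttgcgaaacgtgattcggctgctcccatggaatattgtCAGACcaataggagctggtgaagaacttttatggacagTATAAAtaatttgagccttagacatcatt
Erg: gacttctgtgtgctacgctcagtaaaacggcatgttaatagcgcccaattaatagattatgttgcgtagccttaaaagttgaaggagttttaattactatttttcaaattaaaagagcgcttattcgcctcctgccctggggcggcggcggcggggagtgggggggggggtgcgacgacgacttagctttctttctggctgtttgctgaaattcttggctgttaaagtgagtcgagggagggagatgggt
Abcb1a: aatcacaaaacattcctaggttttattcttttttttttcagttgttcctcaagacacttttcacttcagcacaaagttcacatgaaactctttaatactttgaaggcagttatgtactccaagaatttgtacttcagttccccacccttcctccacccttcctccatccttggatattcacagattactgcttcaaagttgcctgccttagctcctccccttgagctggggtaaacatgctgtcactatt

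Of these 4 windows, the one of Asb5 held a CAGAC match, and it also held 2 matches of TATAAA or TTTATA. Among all 32851 RefSeq promoters of this length, 42.2% held CAGAC or GTCTG and 12.4% held TATAAA or TTTATA. The AP-1 site TGANTCA, present in 6.75% of promoters, and the ETS core CCGGAA or TTCCGG, present in 12.03%, did not occur in the 4 windows or in that of C1qtnf7. Both strands were searched, and a motif match is a match of letters only. The windows differed in CpG dinucleotides, with 14 in Erg, 6 in Add2, 6 in Asb5, 6 in C1qtnf7 and 0 in Abcb1a, against a median of 6 over all promoters. Erg and Asb5 each have 3 annotated starts, and the other 2 windows of Erg each held 1 match of CAGAC or GTCTG.

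Pi15 was the member highest in KO-SD. It had 69, 68 and 84 counts in WT-SD and 2794, 2162 and 2376 in KO-SD, where it averaged 114 ± 12.7 CPM (SD, n = 3) against 3.31 ± 0.460 CPM in WT-SD. With TGF-β it had 6, 8 and 5 counts in WT-TGF and 16, 12 and 21 in KO-TGF. KO libraries were thus above every WT library in both conditions, but TGF-β brought Pi15 close to the floor of detection, 3 counts, in both genotypes. The log2 fold change between KO and WT was 5.11 (SE 0.0877) in SD and 1.53 (SE 0.451) in TGF. The log2 change with TGF-β was -3.45 in WT and -7.03 in KO, a difference of -3.58 (SE 0.613). By length, Pi15 was the lowest of the 8 genes in WT-SD (0.478 RPKM, which is CPM per kilobase of exon) and the highest in KO-SD (16.5 RPKM).

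C1qtnf7, the other secreted protein, went the opposite way between the genotypes and the same way with TGF-β. It had 420, 369 and 389 counts in WT-SD, 109, 128 and 129 in WT-TGF, 17, 24 and 20 in KO-SD and 0, 2 and 2 in KO-TGF. No library of 1 group overlapped with any of another, and the levels stepped down from 17.6 ± 1.55 CPM in WT-SD to 0.0706 ± 0.0611 CPM in KO-TGF. The log2 fold change between KO and WT was -4.21 (SE 0.145) in SD. In TGF the summed counts were 366 in WT and 4 in KO, which after scaling is 80.9 times as many in WT, with a 95% interval of 31.3 to 299 that covers counting error only. Without KO-TGF replicate 1, the library with no count, the fitted log2 fold change in TGF was -5.66 in place of -6.22.

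Abat was the most abundant of the 8 genes in WT, with 129 ± 1.27 CPM before and 136 ± 2.99 CPM after TGF-β (n = 3 each). It had 2811, 2999 and 2811 counts in WT-SD and 2813, 3099 and 2797 in WT-TGF, with no fall with TGF-β. In KO it had 579, 608 and 633 counts in SD and 242, 266 and 290 in TGF. Every KO library was below every WT library, and in KO every TGF library was below every SD library. The log2 fold change between KO and WT was -2.19 (SE 0.0426) in SD and -3.27 (SE 0.0492) in TGF. The log2 change with TGF-β was -1.003 (SE 0.0604) in KO and 0.08 (SE 0.0353) in WT, and the sign of the WT value turned to -0.07 with scaling by library size alone.

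Sim2, the bHLH-PAS factor, was close to absent in the KO libraries. It had 186, 205 and 157 counts in WT-SD and 130, 132 and 104 in WT-TGF, against 6, 7 and 7 in KO-SD and 3, 3 and 2 in KO-TGF. The WT and KO libraries did not overlap in either condition. The log2 fold change between KO and WT was -4.69 (SE 0.202) in SD, and in TGF the scaled counts were 40.5 times as many in WT (95% counting interval 20.3 to 94.4, from 366 and 8 counts). Its level was 8.18 ± 0.911 CPM in WT-SD against 0.312 ± 0.0323 CPM in KO-SD.

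Erg, the endothelial ETS factor, had TGF-β changes of opposite sign in the genotypes, as Abat had with a WT change near 0. It had 47, 44 and 44 counts in WT-SD and 116, 99 and 121 in WT-TGF, and in KO 59, 44 and 44 counts in SD and 23, 26 and 14 in TGF. The SD libraries of the genotypes overlapped, at 2.02 ± 0.115 CPM in WT against 2.28 ± 0.373 CPM in KO, while all WT-TGF libraries were above and all KO-TGF libraries below the SD libraries of their own genotype. The log2 change with TGF-β was 1.38 (SE 0.163) in WT and -1.03 (SE 0.232) in KO. The log2 fold change between KO and WT was 0.18 (SE 0.194) in SD and -2.23 (SE 0.195) in TGF.

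Abcb1a, the drug transporter, showed the reverse of Erg in its response difference. It had 69, 62 and 72 counts in WT-SD and 25, 21 and 13 in KO-SD, but 116, 107 and 96 in WT-TGF and 118, 123 and 132 in KO-TGF. The KO libraries were below all WT libraries in SD and above all of them in TGF once scaled, with 4.74 to 5.48 CPM in WT-TGF and 6.31 to 6.93 CPM in KO-TGF. The log2 fold change between KO and WT was -1.72 (SE 0.203) in SD and 0.40 (SE 0.123) in TGF. The log2 change with TGF-β was 0.72 (SE 0.139) in WT and 2.84 (SE 0.176) in KO. Abcb1a is close in sequence to its neighbour Abcb1b and reads that align to both were not counted, so part of its signal may be missing from every library.

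Add2 and Asb5, of the membrane skeleton and of a ubiquitin ligase, were the members with the most similar patterns. Add2 had 119, 113 and 116 counts in WT-SD and 248, 247 and 271 in WT-TGF, against 33, 28 and 42 in KO-SD and 63, 77 and 70 in KO-TGF. Its log2 change with TGF-β was 1.21 in both genotypes (SE 0.104 in WT and 0.175 in KO), and the difference of 0.01 (SE 0.155) changed sign in 9 of 18 alternative fits. The KO libraries were thus lower by a like factor in both conditions, by 1.70 on the log2 scale in SD and by 1.69 in TGF. Asb5 had 29, 36 and 37 counts in WT-SD and 95, 74 and 63 in WT-TGF, against 10, 15 and 9 in KO-SD and 15, 12 and 17 in KO-TGF. Its KO and WT libraries did not overlap, while KO-SD and KO-TGF did. Its log2 fold change between KO and WT was -1.52 (SE 0.287) in SD and -2.21 (SE 0.226) in TGF.

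**Figure D1:**
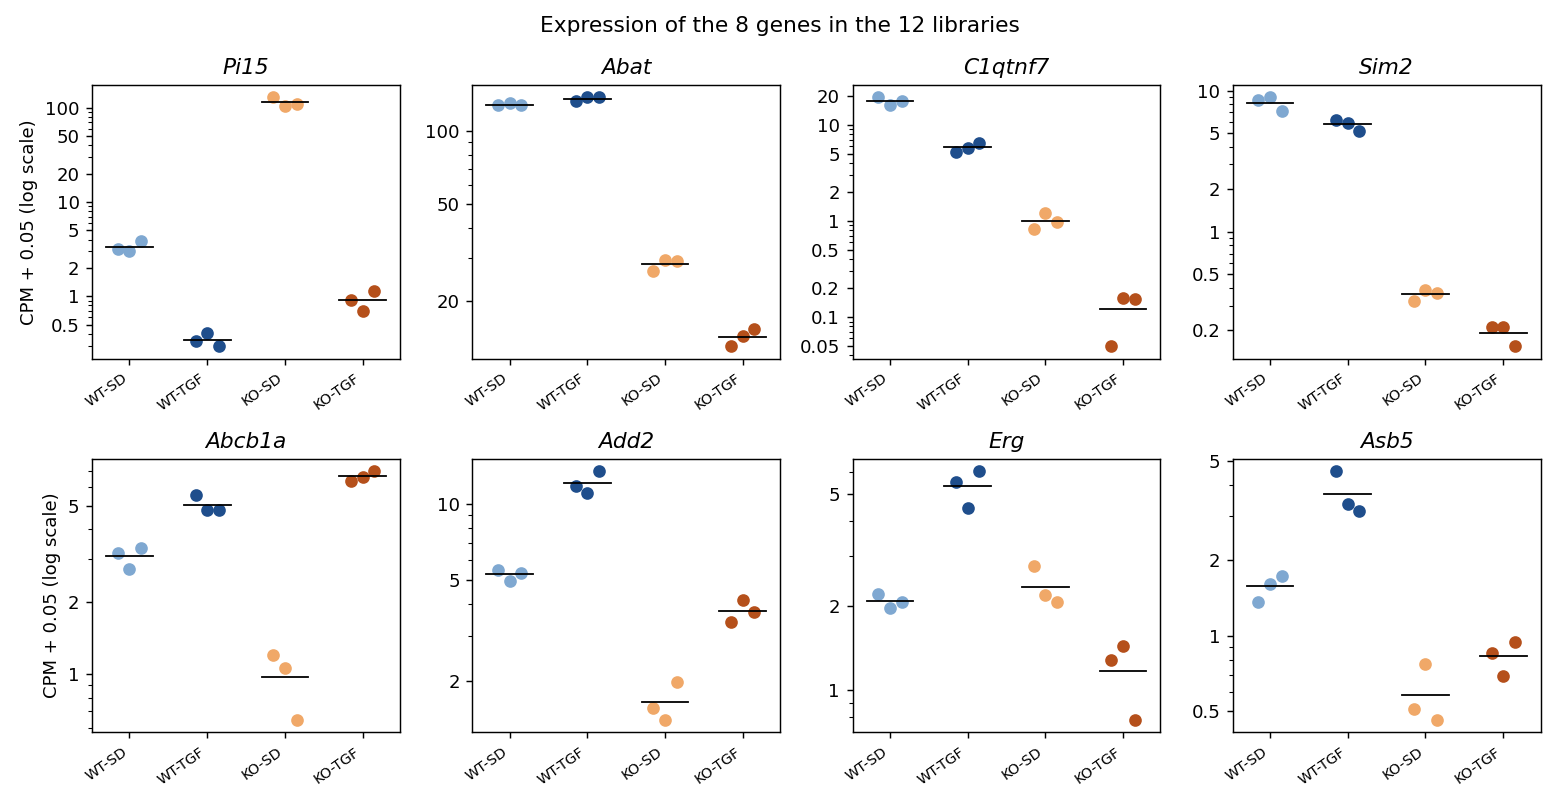
Level of each of the 8 genes in the 12 libraries, as CPM plus 0.05 on a log axis; points are libraries and lines are the means of the 3 libraries of a group. Pi15 was highest in KO-SD, Abat, C1qtnf7 and Sim2 were low in both KO groups, and Erg was high in WT-TGF and low in KO-TGF.

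In all, KO and WT libraries did not overlap for 7 of the 8 genes in SD, where this held for 59.2% of the 11468 genes tested, and for 8 of 8 in TGF, against 61.6% of genes. The fold change between KO and WT was over 2 for 7 of the 8 genes in SD (7.05% of genes) and for 7 in TGF (6.76%). These contrasts chose the genes, so nothing is read from the counts. Just inside the choice were Erg in SD, with a fold of 1.13, and Abcb1a in TGF, with a fold of 1.32, each of which had a fold over 2 in the other condition. No fold limit is given for the choice, so no gene just outside it can be named.

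**Figure D2:**
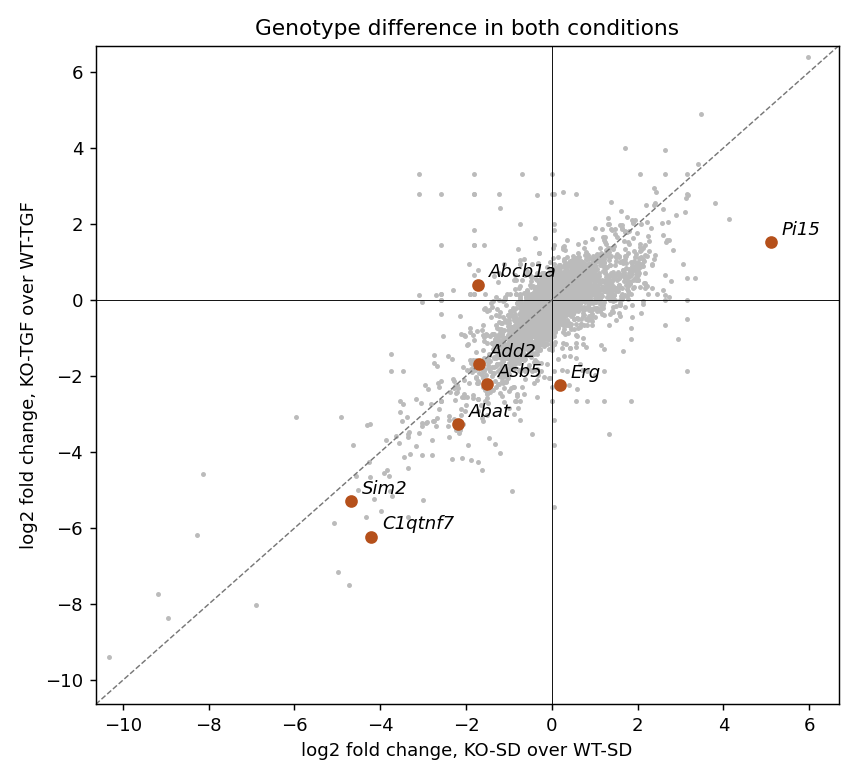
Log2 fold change of KO over WT in SD (x axis) and in TGF (y axis) for the 11468 genes tested, with the 8 genes labelled; the dashed line marks equal values. Sim2, C1qtnf7, Abat, Asb5 and Add2 were lower in KO in both conditions, Pi15 was higher in both, Erg was lower in TGF and Abcb1a was lower in SD.

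The rule for the choice does not name the TGF-β response averaged over the genotypes, but the filter on low values, RPKM >1 in at least 1 library, bears on it. Abat was above the limit in 12 libraries and C1qtnf7 and Sim2 in the 6 WT libraries, so these genes passed in both conditions. Pi15 passed through the 3 KO-SD libraries, Add2, Erg and Asb5 through the 3 WT-TGF libraries, and Abcb1a through 1 WT-TGF and 3 KO-TGF libraries. A gene that passed in 1 condition had to be high there, so the averaged responses of these 5 genes are given as values with no test. They were -5.24 (SE 0.168) for Pi15, 1.78 (SE 0.114) for Abcb1a, 1.21 (SE 0.101) for Add2, 0.90 (SE 0.199) for Asb5 and 0.17 (SE 0.149) for Erg on the log2 scale.

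For the other 3 genes the quasi-likelihood test of edgeR was used, with p-values adjusted over the 11468 genes by Benjamini-Hochberg, of which 80.5% were called at FDR <5% (38.7% higher and 41.8% lower with TGF-β). With so many genes called, a call by itself sets no gene apart. C1qtnf7 fell by 2.63 on the log2 scale (SE 0.250, adjusted p = 5.69e-11), Sim2 by 0.81 (SE 0.278, adjusted p = 0.00932) and Abat by 0.46 (SE 0.0351, adjusted p = 3.54e-13). The average for Abat combines a lower level in KO-TGF with the WT level described above. The response had a larger SE in KO than in WT for C1qtnf7 (0.528 and 0.0999), Sim2 (0.548 and 0.108) and Abat (0.0604 and 0.0353). With unequal SEs the average shares noise with the response difference that the choice used. The p-values of these 3 genes are therefore not free of the choice.

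These 3 genes were also checked with a two-sided exact permutation test of the SD and TGF labels within each genotype, on log2(CPM + 0.5), over 400 arrangements. It used the same libraries, so it is no more free of the choice of the genes. C1qtnf7 and Sim2 each had p = 0.005, the smallest that this exact test allows (0.008 adjusted over 8 tests). On this scale their averaged changes were smaller, -1.44 for C1qtnf7 and -0.41 for Sim2. For Abat the exact permutation p was 0.1 (0.114 adjusted), so its averaged change was called by edgeR and not by permutation.

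**Figure D3:**
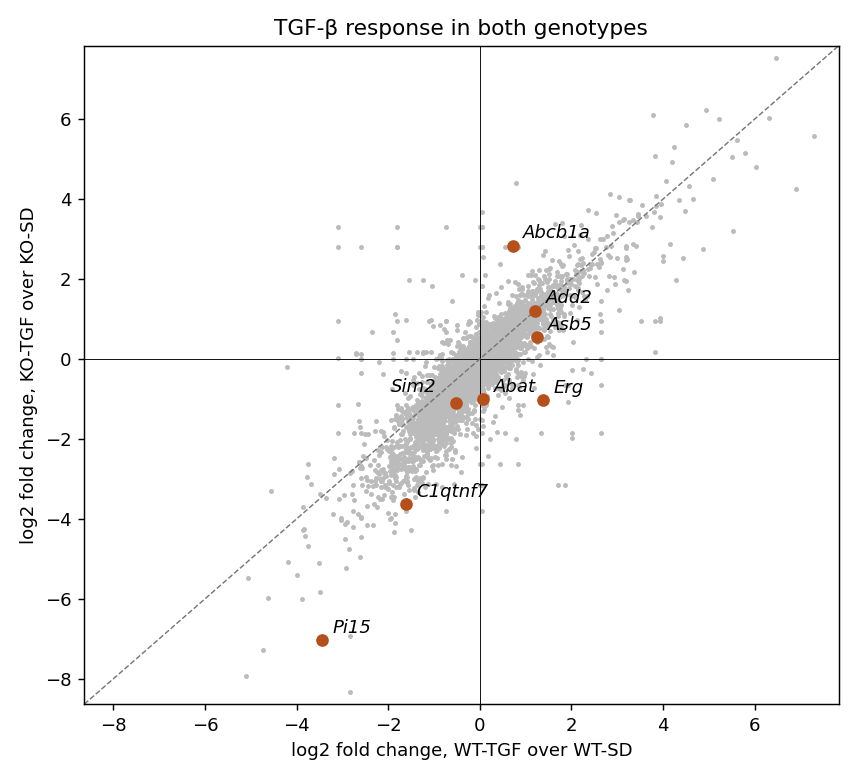
Log2 fold change with TGF-β in WT (x axis) and in KO (y axis) for the 11468 genes tested, with the 8 genes labelled; the dashed line marks equal responses. Add2 lay on the line, Erg had a positive value in WT and a negative one in KO, and Abcb1a lay above the line and Pi15 below it.

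The TGF-β libraries of each genotype did not overlap with its SD libraries for 8 of the 8 genes in WT, against 75.3% of all genes, and for 7 in KO, against 74.4%, with Asb5 the exception. By length, the order of levels in WT-SD began with Abat (16.6 RPKM), C1qtnf7 (4.24), Sim2 (1.94) and Asb5 (0.827), each above the next in every library. Erg, Abcb1a, Add2 and Pi15 followed, between 0.583 and 0.478 RPKM, and neighbours in this order overlapped. In WT-TGF, Abat (17.6 RPKM) was followed by Asb5, Erg, C1qtnf7, Sim2 and Add2 between 1.97 and 1.19 RPKM, where each overlapped with the next, then by Abcb1a (0.912) and Pi15 (0.0427). In KO-SD the first were Pi15 (16.5 RPKM), Abat (3.66) and Erg (0.659), each above the next in every library, and the lowest was Sim2 (0.0738). In KO-TGF the first were Abat (1.82 RPKM) and Abcb1a (1.20), and the lowest were Sim2 (0.0336) and C1qtnf7 (0.0170), which overlapped.

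Likeness of pattern was measured as the root mean square difference of centred log2(CPM + 0.5) over the 12 libraries, in log2 units. A small value means that genes moved together on this scale. The added 0.5 CPM narrows the differences of genes with low levels, such as Sim2 and C1qtnf7 in KO. Among the 8 genes the closest pair was Add2 and Asb5 (0.363), followed by Abat and Sim2 (0.456), and Erg and Asb5 (0.537). The fitted log2 differences between KO and WT of Abat and Sim2 were less alike, -2.19 and -4.69 in SD and -3.27 and -5.28 in TGF. Over all genes tested, the closest to Asb5 were Flt1, a VEGF receptor of endothelial cells (0.166), Sod3 (0.183) and Serpina3h (0.208). The closest to Add2 were Hs3st1 (0.188), Sp6 (0.201) and St8sia2 (0.233), of which St8sia2 had its lowest mean in KO-SD, 49.6 CPM, and its highest in WT-TGF, 306 CPM. The closest to Sim2 were Tfpi, the inhibitor of the tissue factor pathway (0.201), Des, which codes for the muscle filament desmin (0.230), and Cul9 (0.302). Des had 7.68 CPM in WT-SD against 0.529 CPM in KO-SD.

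Abat was closest to Trabd2b (0.202), Arhgap28 (0.261) and Rai2 (0.290), and C1qtnf7 to Ildr2 (0.303), the acid-sensing channel Asic3 (0.331) and the choline transporter Slc5a7 (0.335). Ildr2 stepped down over the groups as C1qtnf7 did, from 57.9 CPM in WT-SD to 0.938 CPM in KO-TGF. Erg was closest to Olfml3 (0.273), Als2cl (0.347) and Etl4 (0.353), and Abcb1a to Bean1 (0.287), the collagen gene Col15a1 (0.317) and Vgf (0.322). Pi15 had no near gene: the closest, Cavin2, Prelp and Slc5a12, were at 1.24, 1.26 and 1.27, since none joined a KO-SD level as high to a fall with TGF-β as deep.

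Genes on either side of the 8 on their chromosomes were read in the same fit. Of the 32 nearest listed genes, 2 on each side, 14 were tested. In SD, 3 were called higher in KO and 5 lower, and in TGF 2 higher and 6 lower, where 30.6% and 25.3% of all genes were called higher and lower in SD and 27.3% and 27.9% in TGF. The largest differences were at C1qtnf7 and Sim2. Cc2d2a, which codes for a protein of the base of the cilium and lies 43.2 kb from C1qtnf7, had 78.3 ± 1.95 CPM in WT-SD against 45.4 ± 0.195 CPM in KO-SD. Its log2 difference was -0.79 (adjusted p = 1.38e-16) without TGF-β and -0.98 (adjusted p = 2.93e-15) with it. Cpeb2, an RNA-binding regulator of translation on the other side of C1qtnf7 at 225.7 kb, was also lower in both conditions, with log2 differences of -0.50 and -0.26. The flanking genes of C1qtnf7 were thus lower in KO as well, by far less than C1qtnf7.

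Chaf1b, a subunit of the histone chaperone that assembles chromatin behind replication forks, lies 179.0 kb from Sim2 and was called higher in KO-SD (log2 fold change 0.95, adjusted p = 2.02e-09) but not in TGF (-0.23, adjusted p = 0.243). Hlcs, 2.3 kb from Sim2, was not called in either condition (log2 fold change -0.04 and -0.13), so the genes around Sim2 had nothing like its difference. Vegfc, a lymphatic growth factor 363.9 kb from Asb5, was higher in KO-SD by 0.60 (adjusted p = 2.12e-08), where Asb5 was lower. Jph1, a junctophilin 504.0 kb from Pi15, was higher in both conditions (0.47 and 0.38). Abcb1b, the other P-glycoprotein and 49.6 kb from Abcb1a, had a log2 difference of -0.31 without TGF-β (adjusted p = 0.000696) and of -0.22 with it (adjusted p = 0.0264 in edgeR, 0.0937 with DESeq2), while Abcb1a was higher in KO-TGF. Ets2, next to Erg, had a log2 difference of 0.03 in SD (adjusted p = 0.456) against 0.10 in TGF (adjusted p = 0.0404). The TGF value turned to -0.02 with scaling by library size alone. Leaving out a single library ended the TGF call of Abcb1b for 5 of the 12 libraries (KO-TGF replicates 1, 2 and 3, WT-TGF replicates 1 and 3; adjusted p up to 0.114) and that of Ets2 for 4 (KO-TGF replicate 3, WT-SD replicate 3, WT-TGF replicates 1 and 2; up to 0.143). By the interaction test, 1 of the 14 neighbours had a more positive and 3 a more negative response in KO, where 25.4% of all genes differed. Crispld1, the CAP gene beside Pi15, had at most 2 counts in any library and was not tested.

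**Figure D4:**
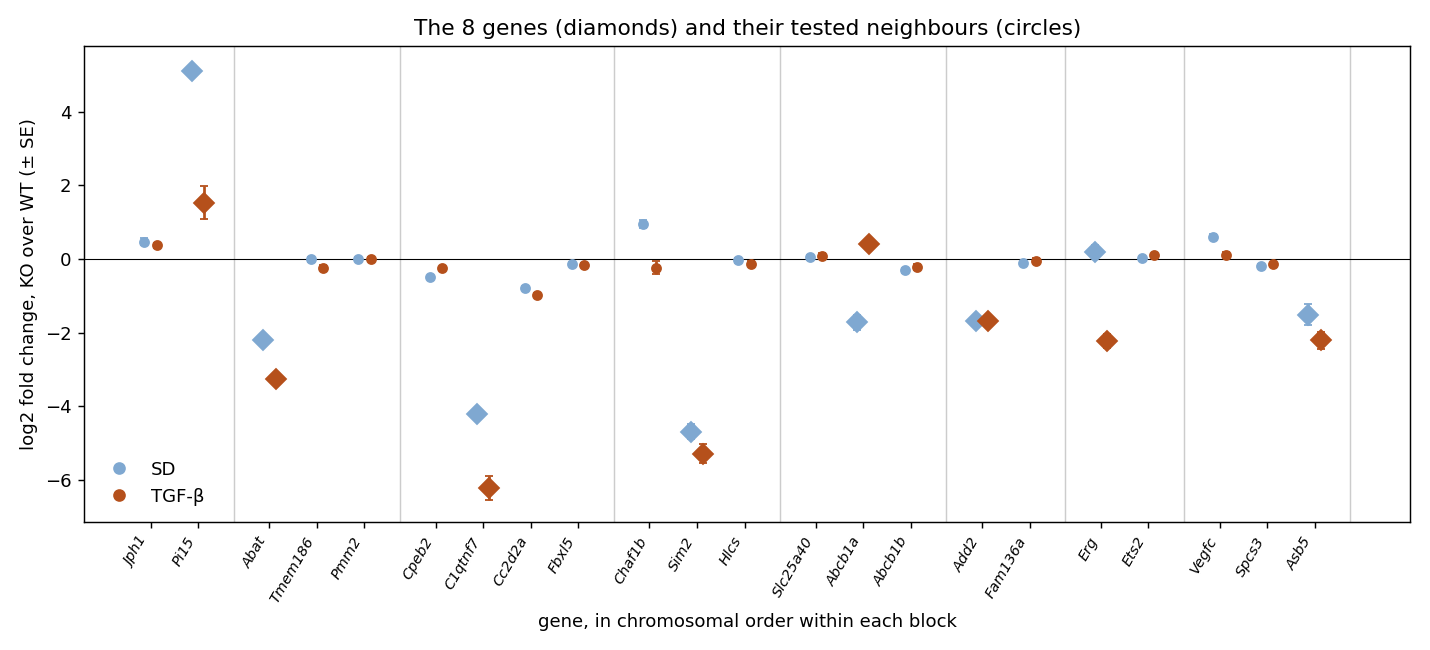
Log2 fold change of KO over WT, with its SE, for the 8 genes (diamonds) and the 14 tested neighbours (circles) in SD and in TGF, in chromosomal order within each block. The neighbours lay between -0.98 and 0.95, while every one of the 8 genes was beyond 1.5 in size in at least 1 condition. The 8 genes were chosen for such differences and the neighbours were not, so nothing is read from this contrast.

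Relatives and partners of the 8 genes were listed by family and function, 151 genes listed and 67 tested. In SD, 18 were called higher and 26 lower in KO (11 and 32 with scaling by library size alone), and in TGF 20 were higher and 28 lower (6 and 41 with that scaling). Their median log2 fold change was -0.04 in SD and -0.06 in TGF, beside 0.02 and 0.00 over all genes tested. Over all genes tested, 30.6% were called higher and 25.3% lower in SD, and 27.3% and 27.9% in TGF. Of the CAP family of Pi15, 3 genes were tested, and 2 were higher in KO-SD and 3 in KO-TGF. Glipr1, the one with the largest called difference, had 1.48 ± 0.255 CPM in WT-SD against 2.96 ± 0.408 CPM in KO-SD (log2 difference 1.002, adjusted p = 3.36e-05). All 3 CAP genes rose with TGF-β in the averaged test.

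In the GABA list, 5 genes were tested, and 3 were lower in KO-SD and 4 in KO-TGF with none higher. The tested genes were Gabbr1, Aldh5a1, Aldh9a1, Aldh6a1 and Hibch, so Gabbr1 was the only receptor gene among them. Of the untested receptor genes, Gabra4 had 0.659 CPM in WT-SD against 1.02 in KO-SD, and 0.471 in WT-TGF against 1.84 in KO-TGF. Gabrb1 went the other way, with 8.39 against 5.56 CPM in SD and 5.45 against 5.33 CPM in TGF. Gabbr1, a subunit of the GABA-B receptor, had 41.4 ± 0.498 CPM in WT-SD against 29.5 ± 2.17 CPM in KO-SD (log2 difference -0.49, adjusted p = 3.70e-10), and Aldh5a1, which oxidizes the product of Abat, had a log2 fold change of -0.46 in TGF (adjusted p = 0.00670, and 0.0661 without KO-TGF replicate 1). The genes that code for the enzymes making GABA, Gad1 and Gad2, had at most 4 counts in any library of any group and were not tested. In the C1q and TNF related family, 5 genes were tested, with 2 higher and 1 lower in KO-SD and 2 higher and 2 lower in KO-TGF. C1qtnf3 was higher in KO-SD (log2 fold change 0.92, adjusted p = 2.56e-11) but lower in KO-TGF (-0.50, adjusted p = 1.02e-11). C1qtnf1 was not called in KO-SD (0.004, adjusted p = 0.944) and was lower in KO-TGF (-0.72, adjusted p = 8.61e-15). The family thus did not move in 1 direction with C1qtnf7.

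Of the bHLH-PAS genes, 9 were tested, and 3 were higher and 3 lower in KO in each condition. The largest called difference was that of Epas1, the hypoxia-inducible factor 2α, with 22.0 ± 0.624 CPM in WT-SD against 11.6 ± 0.108 CPM in KO-SD (log2 difference -0.92, adjusted p = 6.42e-13). Among 15 ETS genes tested, 5 were higher and 4 lower in KO-SD and 5 higher and 5 lower in KO-TGF. Elf3, an epithelial ETS factor, had log2 fold changes of -1.65 (adjusted p = 4.50e-09) and -2.76 (adjusted p = 2.09e-09). Both transcription factor families were thus divided in direction.

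Of 7 ABC transporters and their regulators tested, 1 was higher and 6 lower in KO-SD, and 1 was higher and 4 lower in KO-TGF. Abcc3, an exporter of bile acid and drug conjugates, had 6.61 ± 0.436 CPM in WT-SD against 2.61 ± 0.136 CPM in KO-SD (log2 difference -1.34, adjusted p = 1.41e-09), and with TGF-β the log2 difference was -3.80 (adjusted p = 9.21e-10). In the adducin and spectrin skeleton, 14 genes were tested, with 4 higher and 7 lower in KO-SD and 6 higher and 6 lower in KO-TGF. Ank3, the ankyrin G gene, was lower in both conditions (log2 fold change -0.91 and -0.99, adjusted p = 5.32e-15 and 2.34e-16). In the ASB and cullin-5 list, 9 genes were tested, with 1 higher and 2 lower in KO-SD and 4 lower in KO-TGF. Asb13 had the largest called differences there, -0.22 without TGF-β (adjusted p = 0.0162) and -0.53 with it (adjusted p = 2.11e-05). The former was not called without KO-SD replicate 3 or WT-SD replicate 3 (adjusted p up to 0.0609).

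Markers of other cell types moved with the genotypes, and their part in the differences of the 8 genes was not tested. In bulk libraries, fewer cells of a type and less RNA per cell cannot be told apart. Of 14 macrophage markers, 4 were tested, and all 4 were lower in KO in both conditions. Their summed level over the list was 39.2 to 42.6 CPM in WT-SD against 8.73 to 10.2 CPM in KO-SD, and Adgre1, Tyrobp, C1qa, C1qb and C1qc were at 0 in every KO library. The 6 podocyte markers tested of 12 were all lower in KO, with sums of 555 to 567 CPM in WT-SD against 239 to 247 CPM in KO-SD. The tubular list, with 3 of 12 tested, ran from 75.9 to 81.5 CPM in WT-SD against 24.3 to 25.7 CPM in KO-SD. Lrp2 and Cdh16 carried this and were called lower in KO-SD (log2 difference -1.98 and -3.35), while Aqp1 was called higher (0.73). All 3 tested genes were lower in KO-TGF. Slc12a1 and Cubn were not tested and had higher means in KO. Slc12a1 had 0.358 CPM in WT-SD against 1.25 in KO-SD, and 0.842 in WT-TGF against 3.05 in KO-TGF. Cubn had 3.01 against 3.23 CPM in SD and 5.25 against 5.63 CPM in TGF. Umod, Aqp2, Kap and Slc34a1 were at 0 throughout.

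The endothelial list is the one that bears on Erg. Of its 22 genes, 2 were tested, Flt1 and Ehd3, both lower in KO, and the sums were 54.2 to 56.2 CPM in WT-SD, 61.8 to 67.6 in WT-TGF, 30.0 to 31.9 in KO-SD and 25.5 to 26.3 in KO-TGF. Eng had up to 52 counts in a library, and the other 19 genes had at most 14, among them Kdr with up to 10, Tek with up to 6, Pecam1 with up to 4 and Cdh5 with up to 2. Of these, Cldn5, Robo4 and Sox17 were at 0 in all libraries. Of the 12 skeletal muscle genes, where Asb5 is also expressed, Acta1 was tested and was higher in KO-SD (log2 fold change 2.59), while Myod1, Myf5, Pax7 and Ckm were at 0 throughout. Asb5 was lower in KO, so it did not move with Acta1 between the genotypes. With TGF-β the log2 change was positive for both genes, 1.46 in WT and 0.58 in KO for Acta1 and 1.25 and 0.55 for Asb5, whose KO libraries overlapped.

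The label of mesangial cells was set beside 14 markers of mesangial and smooth muscle cells. Their sum was between 4851 and 5029 CPM in WT-SD, 9112 and 9356 in WT-TGF, 7622 and 7658 in KO-SD and 14979 and 15153 in KO-TGF, with Acta2, the smooth muscle actin, and Vim, the filament vimentin, the highest. The sum thus speaks mainly for its most abundant genes. Pdgfrb had group means of 289 to 383 CPM. Gata3 had 4.04 to 9.11 CPM, Itga8 0.637 to 3.05 CPM and Myh11 0.691 to 1.39 CPM, and Thy1 had at most 1 count in any library. Of the 11 tested, 8 were higher and 3 lower in KO-SD. Des, Serpine2 and Ptn were the ones lower, with log2 fold changes of -3.85, -1.73 and -1.19. Cell cycle genes also differed, with all 10 higher in KO-SD and sums of 129 to 151 CPM in WT-SD, 54.1 to 61.8 in WT-TGF, 474 to 481 in KO-SD and 85.9 to 91.5 in KO-TGF. Pi15 shared with this list the highest level in KO-SD and lower levels with TGF-β in both genotypes. The Y-linked genes Ddx3y, Kdm5d, Eif2s3y and Uty were counted in all 12 libraries.

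**Figure D5:**
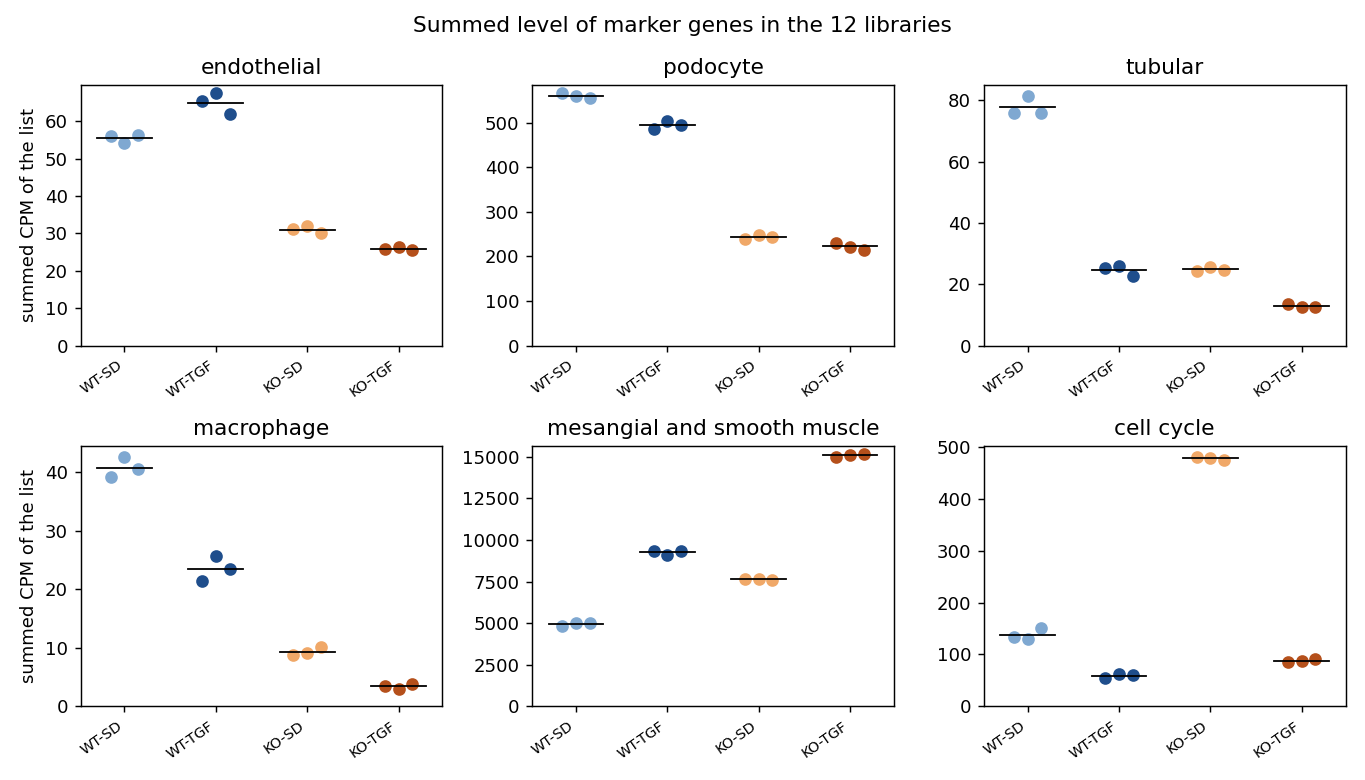
Summed CPM of 6 marker lists in the 12 libraries; points are libraries, lines are group means, and each axis starts at 0. In SD, the podocyte, tubular, macrophage and endothelial sums of KO were below those of WT, while mesangial and cell cycle sums were above.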

How the data were processed

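The values deposited by the authors are raw counts per gene in 12 libraries. Single-end mRNA reads had been aligned by the authors with TopHat (mm10), and HTSeq-count had assigned them by strand to RefSeq genes. Reads with several alignments (11.2% to 11.7% of a library) were dropped. Totals that name no gene, such as reads outside genes (10.3% to 15.4%), were left out. Library sizes were scaled by TMM and genes with RPKM >1 in at least 1 library (exon lengths of GENCODE, matched by symbol) were kept. All 11468 genes entered 1 fit of the 12 libraries, with 1 mean per group, by the quasi-likelihood method of edgeR 4.0.16 under R 4.3.3, with Benjamini-Hochberg adjustment at FDR <5%. The test was tried on simulated data first. Exact permutation tests and the likeness of pattern used 0.5 CPM as pseudocount. Alternatives were library size alone, RLE size factors, DESeq2 1.42.0, a CPM filter, no filter, the replicate number as a block, and each library left out.

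The 8 genes and the lists of families, markers and motifs were chosen with earlier results of these data known. Named beside the 8 genes were, by rule, the 3 genes closest in pattern to each, the 2 nearest listed genes on each side, and the family genes with the largest called difference between the genotypes. Within a group, the spread between libraries exceeded sampling noise (chi-square per degree of freedom 1.35 to 5.41 over 12 pairs), so none was taken for a copy of another. Intervals cover counting error only.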

Additional observations from a re-analysis of the deposited data

Results flagged for a closer look

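For Erg and Abat, every TGF-β library of WT was above, and every TGF-β library of KO below, the SD libraries of the same genotype. The log2 response in KO less that in WT was -2.41 for Erg and -1.08 for Abat. Both genes were chosen for such differences, so the difference was not tested, and the WT change of Abat was 0.08 on the log2 scale.

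By the interaction test of edgeR at FDR <5%, which called 25.4% of all genes tested, 8 of the 67 relatives had a more positive and 15 a more negative TGF-β response in KO, and so had 1 and 3 of the 14 neighbours. Values are given for the 4 neighbours and for the 5 relatives that had the largest called genotype difference of their list and passed this test. Of the neighbours, the log2 response in KO less that in WT was -1.18 for Chaf1b (adjusted p = 2.19e-05), -0.49 for Vegfc (adjusted p = 0.000181), 0.24 for Cpeb2 (adjusted p = 0.00716) and -0.19 for Cc2d2a (adjusted p = 0.0472). Of the relatives, it was -2.46 for Abcc3 (adjusted p = 0.000142), -1.42 for C1qtnf3 (adjusted p = 1.33e-13), -1.11 for Elf3 (adjusted p = 0.0346), -0.73 for C1qtnf1 (adjusted p = 5.21e-11) and -0.38 for Epas1 (adjusted p = 0.0269). The calls of Cc2d2a, Elf3 and Epas1 were lost with DESeq2 (adjusted p = 0.193, 0.0871 and 0.114). Leaving out a single library ended them for 10, 7 and 4 of the 12 libraries, with adjusted p up to 0.407, 0.158 and 0.171. WT-TGF replicate 3 and KO-TGF replicate 2 were among those libraries for all 3 genes. Chaf1b fell with TGF-β in WT (log2 fold change -1.04) and further in KO (-2.22), and C1qtnf3 rose in both, by 3.99 and 2.58 on the log2 scale.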

How the results depend on the processing

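The falls of C1qtnf7, Sim2 and Abat in the averaged TGF-β response were called under every alternative fit, with each library left out and with the replicate number as a block. These fits used the same libraries and their p-values are not free of the choice of the genes, so they are no independent support. With the exact permutation test Abat was not called (-0.45, adjusted p = 0.114). Scaling by library size alone moved the most: its median over all genes was -0.20 for the averaged response, -0.16 for the response in WT, -0.23 for that in KO and -0.12 for KO against WT in TGF, and the share of calls that were higher fell from 48.1% to 28.2% for the averaged response, from 54.8% to 37.0% for KO against WT in SD and from 49.5% to 23.4% in TGF. With it, 2685 genes were higher for the averaged response (4442 with TMM), 2647 in WT (4122), 2303 in KO (4012) and 1645 in KO-TGF against WT-TGF (3128), where 5374 were lower (3194). The TGF-β response of Abat in WT reversed to -0.073 and the average of Erg was 0.00. Relatives called higher in KO were 11 in SD and 6 in TGF, and neighbours higher in TGF were 1, as with DESeq2 and, over the libraries left out, 1 to 2 (1 without WT-SD replicate 3, WT-TGF replicate 2 or KO-TGF replicate 3). With no filter, 4 endothelial markers were lower in SD in place of 2. The cause of these shifts was not tested. The same replicate numbers do not pair the libraries: correlations of deviations between same-numbered libraries were -0.0318 to 0.132, with 1 of 18 above 0.1. With the replicate block, 3625 genes were higher and 2980 lower in KO-SD (3508 and 2898 without), and these 3 calls stood. Depth limits C1qtnf7 and Sim2 in KO-TGF, where counts were at or under the floor of 3 in each library.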
